A study of Mus musculus with 22 samples.

Results

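The genes described here are 47 cell cycle genes of the 32285 genes in the deposited matrices, taken by symbol from a list of genes with known roles. They fall into 3 parts. The S part has 19 genes of DNA replication and its preparation, the G2/M part has 23 genes of mitosis, and the last part has 5 regulators of the G1 phase. Every one of the 47 symbols was found once.

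Gastruloids are aggregates of embryonic stem cells that form the main axis and many cell types of a mouse embryo in culture. All came from wild-type E14Tg2A mouse embryonic stem cells seeded at 300 cells a well, aggregated for 48 h and given a pulse of 3 µM CHIR99021, a GSK3 inhibitor that activates Wnt signalling, so every group shares 1 cell line and 1 treatment and there is no untreated group. Single cells were sequenced with 10x Genomics 3′ chemistry, and in the MULTI-seq experiments a lipid-anchored barcode marked the gastruloid of each cell. Of the gastruloids used, MULTI-seq 1 gave 24 of day 5, and MULTI-seq 2 gave 11 of day 4 and 12 of day 4.5. MULTI-seq 3 gave 24 of day 3, 16 each of days 3.5 and 4 in 1 pool, and 16 each of days 4.5 and 5 in another pool. For MULTI-seq 3, pool here means gastruloids that shared lanes, a word its labels do not use. The sample descriptions of MULTI-seq 3 give each of these sets of lanes a different experiment number. Without gastruloid calls there were 1 lane each of day 3 and day 4 and 2 lanes of mixed day 4 and day 4.5 gastruloids.

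In the authors' cell table, 77674 cells had a barcode in the matrices, while 9 of the day 4 lane without gastruloid calls did not and were left out. A gastruloid call was given for 53730, and 135 gastruloids with 60 to 1397 cells and 1293296 to 57333371 UMIs (unique molecular identifiers, counts of captured RNA molecules) each were the replicates, while 1 further gastruloid had under 30 cells and was left out. Levels are given as CPM, the UMIs of a gene per 1000000 UMIs of the sum. Median UMIs per cell ranged from 8287 to 38443 over the 18 lanes. No pair of lanes shared more than 15 cell barcodes. Days 3 and 3.5, and days 4 and 4.5 of MULTI-seq 3, were in different pools and lanes, so pool and day cannot be told apart and they were not tested against each other. Nothing in the labels says that gastruloids came from separate cultures, so p-values measure the spread between gastruloids of 1 pool. Cell type names are the authors'. In summed levels, several types had another list above the list fixed for their name. Lists hold genes of different abundance, so sums of different lists in 1 type are not on 1 scale. The neural list (Sox2, Sox1, Pax6, Nkx6-1) was at 64 CPM in Early Neurectoderm and 80 in Caudal Neurectoderm, where the epiblast list (Pou5f1, Nanog, Dnmt3b, Utf1) was at 989 and 465. Early and Late Anterior PSM had 287 and 444 for the PSM list (Tbx6, Msgn1, Hes7, Dll1) against 724 and 1283 for the somite list (Meox1, Tcf15, Pax3, Foxc2). Caudal Epiblast had 843 for the streak list (T, Mixl1, Eomes, Fgf8) against 422 for the epiblast list, and Cardiopharyngeal Mesoderm had 143 for its own list against 204 for the somite list. Between types, the cardiopharyngeal list was highest in Cardiopharyngeal Mesoderm, with Anterior Primitive Streak next (134). The epiblast list was at 538 in Epiblast, below Early Neurectoderm, Primitive Streak (952) and PGCs (primordial germ cells, 1458). The neural list was highest in Late Spinal Cord (394) and Late Neurectoderm (360). In PGCs (157) and NMPs (neuromesodermal progenitors, 91) it was above Early and Caudal Neurectoderm. The streak list was at 1055 in Primitive Streak, below Anterior Primitive Streak (1314), Notochord (1186) and Early Nascent Mesoderm (1177).

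A dividing cell copies its DNA in S phase and parts the copies in mitosis. Genes for replication are switched on by E2F factors as a cell leaves G1, and mitotic genes are held back until G2 by the DREAM complex and then switched on with the help of NF-Y, B-Myb and FoxM1. D-type cyclins (Ccnd1, Ccnd2, Ccnd3) drive a cell out of G1, and the kinase inhibitors Cdkn1a and Cdkn1b hold it there; Cdkn1a is also a classic target of p53. Pluripotent cells cycle fast with a short G1, and cells that differentiate into neurons leave the cycle.

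Promoters of cell cycle genes often hold letters that these factors recognise, and 6 that hold them are shown, from G2/M and S genes named in the results. They are examples and do not stand for their parts. Sequences are the 150 bases before the RefSeq transcription start on GRCm38.p6, the patched form of the mm10 build named in the submitters' processing notes, and run 5′ to 3′ on the gene's strand. In the first 4, from mitotic genes, capitals mark the CCAAT box (CCAAT, or ATTGG on the other strand), the letters of NF-Y, and the cell cycle homology region or CHR (TTTGAA or TTCGAA, or their reverse complements), the letters of the DREAM and B-Myb complexes. In the last 2, from replication genes, capitals mark E2F letters (TTTCCCGC, TTTGGCGC or TTTCGCGC, or their reverse complements), which overlap each other at 1 place in Mcm6. Ube2c lies at chr2:164769779-164769928 (plus strand), Top2a at chr11:99024190-99024339 (minus), Cdc20 at chr4:118437344-118437493 (minus), Ccnb2 at chr9:70421555-70421704 (minus), Mcm6 at chr1:128359706-128359855 (minus) and Cdc6 at chr11:98908001-98908150 (plus).
Ube2c: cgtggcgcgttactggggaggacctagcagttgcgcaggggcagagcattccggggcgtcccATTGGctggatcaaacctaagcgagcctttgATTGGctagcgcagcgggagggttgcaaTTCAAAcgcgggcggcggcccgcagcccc
Top2a: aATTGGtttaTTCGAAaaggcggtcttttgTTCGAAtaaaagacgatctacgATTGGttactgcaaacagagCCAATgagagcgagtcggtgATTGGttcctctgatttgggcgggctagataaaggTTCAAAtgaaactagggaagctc
Cdc20: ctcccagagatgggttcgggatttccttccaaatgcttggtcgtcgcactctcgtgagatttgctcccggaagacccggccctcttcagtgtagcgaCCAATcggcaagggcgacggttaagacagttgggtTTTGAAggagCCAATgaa
Ccnb2: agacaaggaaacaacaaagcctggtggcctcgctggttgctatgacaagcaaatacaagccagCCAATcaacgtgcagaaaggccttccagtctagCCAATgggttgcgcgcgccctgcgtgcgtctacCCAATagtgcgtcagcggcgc
Mcm6: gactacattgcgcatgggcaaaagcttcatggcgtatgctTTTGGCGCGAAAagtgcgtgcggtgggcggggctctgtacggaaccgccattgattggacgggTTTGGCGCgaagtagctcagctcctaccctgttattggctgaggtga
Cdc6: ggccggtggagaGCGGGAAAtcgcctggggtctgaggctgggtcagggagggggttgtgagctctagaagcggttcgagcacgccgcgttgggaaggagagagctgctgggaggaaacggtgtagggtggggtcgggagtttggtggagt

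Among the 39 members with a promoter window in the RefSeq table (250 bases before the start were searched on both strands), the CCAAT box was present in 18 of 20 G2/M genes (90%), in 9 of 16 S genes (56.3%) and in 34.5% of all 27025 genes with a window. Birc5 and Nusap1 were the 2 G2/M genes without it. At least 2 CCAAT boxes were found in 13 of 20 G2/M genes (65%) and in 10.5% of all genes. The CHR letters were in 9 of 20 G2/M genes (45%), in 2 of 16 S genes (12.5%) and in 17.4% of all genes, and each of those 9 G2/M genes also had a CCAAT box, a pair held by 6.21% of all genes. E2F letters were in 4 of 16 S genes (25%), in 1 of 20 G2/M genes (5%) and in 1.59% of all genes. Ccnb2, shown above, had 3 CCAAT boxes and no CHR within the printed stretch. These are matches of letters only and do not show that a factor was bound.

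Across single cells the S and the G2/M genes went in opposite directions. At each day of MULTI-seq 3 1 lane and cell type was taken, the pair with the most cells (326 to 3757), from Primitive Streak at day 3 to Mature Somites at day 5, and each cell was thinned to 5000 UMIs. Cells without a gastruloid call were not left out, and at day 3 they were among the cells taken. Each gene was correlated with the sum of the other genes of each part. All 23 G2/M genes correlated more with the G2/M sum than with the S sum at all 5 days, and 18 of 19 S genes did the reverse. The exception was Tyms, thymidylate synthase, which did so at 4 of the 5 days. The S sum and the G2/M sum were negatively correlated at every day, with Pearson's r from -0.52 to -0.26. These values are descriptions across cells that share a library and a depth, with counts that sum to 1 fixed total.

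Within the G2/M part, Ube2c, the ubiquitin-conjugating enzyme of the anaphase-promoting complex, had the highest correlation with the other G2/M genes (mean r 0.69, from 0.64 to 0.75 over the 5 days). Cenpf, a kinetochore protein, had a mean r of 0.67 and Top2a, the enzyme that untangles sister DNA, 0.57. Nusap1, which bundles spindle microtubules, had 0.50. Ccnb2 was the lowest of the 23, at 0.22. S genes had lower values: Pcna, the sliding clamp of DNA polymerase, had 0.29 with the S sum, Mcm4, a subunit of the replicative helicase, 0.28, and E2f1 0.10. The 5 G1 regulators had mean correlations from -0.14 (Ccnd2) to 0.05 (Cdkn1b), both with the G2/M sum. That of Ccnd2 was as far from 0 as the -0.13 of the S gene Rrm2. Means hid a change of sign over the 5 days. With the G2/M sum, Ccnd2 ran from -0.24 to 0.07 and Ccnd1 from -0.17 to 0.13. At this depth counting noise lowers r for genes with few UMIs, and gene level was not adjusted for. The order of these values is therefore no measure of how tightly genes were coupled.

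**Figure D1:**
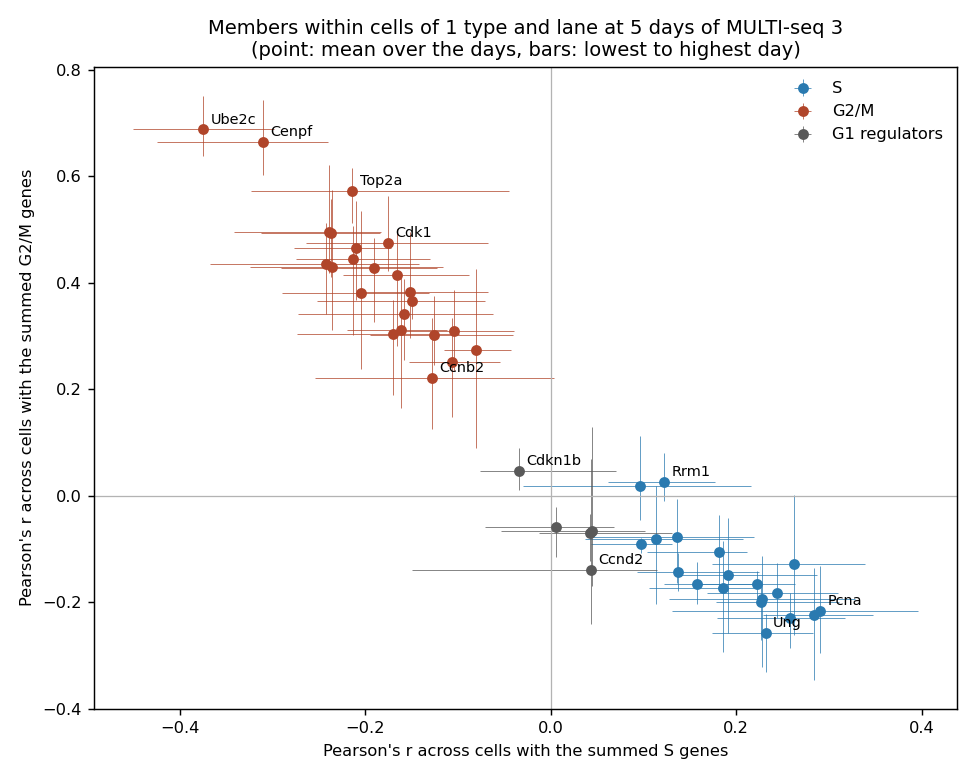
Each point is 1 of the 47 genes, placed by its mean Pearson's r across cells with the summed S genes (x axis) and the summed G2/M genes (y axis), with bars from the lowest to the highest of the 5 days. The 23 G2/M genes sit high on the left, the S genes low on the right, and the 5 G1 regulators near the origin. Of these 5, Ccnd2 lies farthest below it, at -0.14.

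The authors' own phase calls separated the same sums. Both come from the same cells, and the labels do not say which genes made the calls, so this is no independent check. In MULTI-seq 3, cells they called S had 3022 CPM for the S genes and 1648 for the G2/M genes, and cells they called G2M had 1535 and 5713. Cells they called G1 had 1856 and 1671, so a G1 call meant a low G2/M sum and a middling S sum. G1-called cells were also shallower (median 25630 UMIs) than G2M-called cells (median 35584). In the authors' gene flags, 44 of the 47 members were marked as cell cycle genes, and none of the 1211 genes so marked was among the 4214 genes marked as variable. Tyms, Ung and Slbp were not marked as cell cycle genes, and Ung and Slbp were marked as variable.

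In whole gastruloids, summed S genes in MULTI-seq 3 had a median of 1881 CPM at day 3 (lowest 1704, highest 2047, 24 gastruloids). The median was 2137 (range 1821 to 2358) for day 3.5, 1908 (range 1714 to 2268) for day 4, 1783 (range 1476 to 2168) for day 4.5 and 1778 (range 1568 to 1980) for day 5. The summed G2/M genes had medians of 3487 (range 3084 to 3877) for day 3, 3870 (range 3425 to 4284) for day 3.5, 4404 (range 4130 to 4580) for day 4, 3770 (range 3055 to 4019) for day 4.5 and 3752 (range 3245 to 3961) for day 5. The S sum was thus highest at day 3.5 and the G2/M sum at day 4, where its lowest gastruloid was above the highest gastruloids of days 3, 4.5 and 5. Across pools, this order of days cannot be told apart from a difference between pools. Ranges of neighbouring days overlapped for the S sum throughout.

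In MULTI-seq 2 the median S sum was 1866 (day 4) and 2046 (day 4.5 gastruloids), and the median G2/M sum 3574 and 3679. Its gastruloids overlapped those of MULTI-seq 3 in the S sum at both days and in the G2/M sum at day 4.5, while at day 4 its highest G2/M sum (3977) was below the lowest there (4130). In MULTI-seq 1 at day 5 the S sum was 2487 (2193 to 2675) and the G2/M sum 4419 (3983 to 5179), so all 24 gastruloids were above the 16 of MULTI-seq 3 at the same day in both sums. Its 3 lanes had medians of 8287 to 15709 UMIs per cell, against 26466 to 30826 in the 3 lanes of days 4.5 and 5 of MULTI-seq 3. UMI totals in the authors' cell table differed from the matrix totals in every cell of these MULTI-seq 1 lanes. In the MULTI-seq 3 lanes they were equal in every cell. Whether this bears on the levels was not tested. When every cell was thinned to 5000 UMIs, the S sums stayed apart (lowest 2309 in MULTI-seq 1, highest 1963 in MULTI-seq 3), while the G2/M sums overlapped (lowest 3511 and highest 3551). The thinned G2/M medians were 3976 in MULTI-seq 1 and 3407 in MULTI-seq 3. Thinning leaves the expected level of a cell unchanged and gives each cell equal weight, so these values do not test depth.

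**Figure D2:**
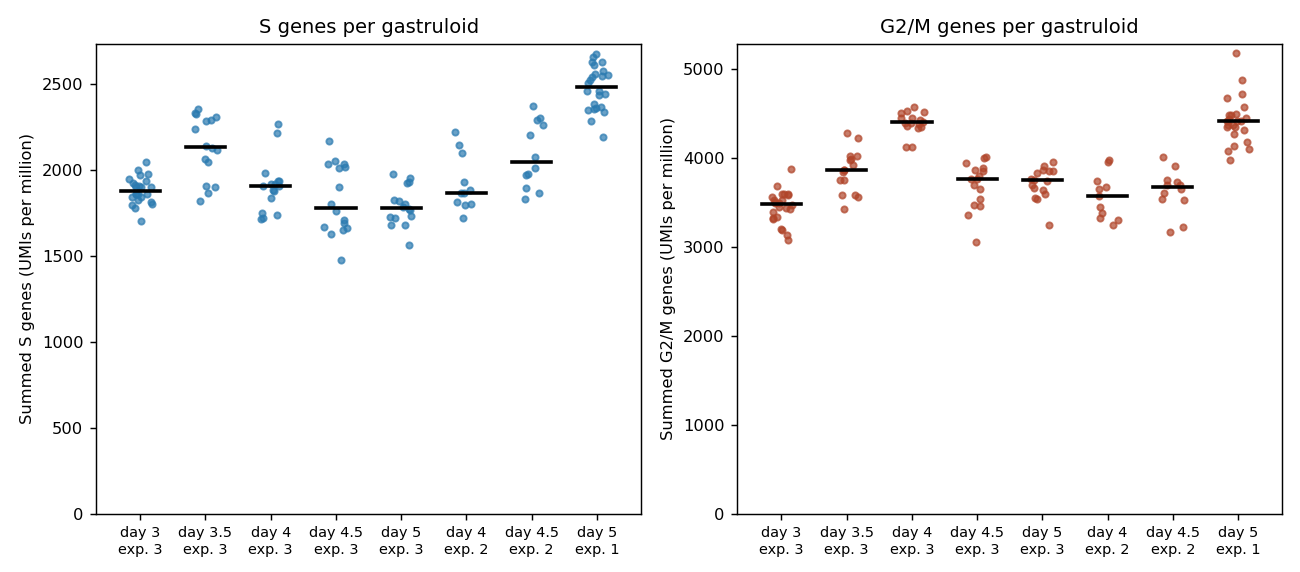
Each point is 1 gastruloid, the y axes give the summed CPM of the S genes (left) and G2/M genes (right), and black bars are group medians, by day and MULTI-seq experiment (exp.) on the x axis. The G2/M sum of MULTI-seq 3 is highest at day 4 (median 4404), while the S sum is highest at day 3.5 (median 2137).

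From day 3.5 to day 4 the S genes fell and the G2/M genes rose. Both days were in 1 pool and the same 4 lanes, with 16 gastruloids each. Of the 19 S genes 13 were lower and none higher at day 4, and of the 23 G2/M genes 18 were higher and none lower (edgeR's quasi-likelihood test, Benjamini-Hochberg adjusted p under 0.05). Median log2 fold changes were -0.19 for the S genes, 0.16 for the G2/M genes and 0.01 over all genes tested. Of all 13262 genes tested, 31.1% were higher and 29.2% lower, so many genes changed between these days. In a whole gastruloid, fewer cells of a type and less RNA per cell cannot be told apart. No G2/M or S gene moved by 0.5 or more on the log2 scale.

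Among the G2/M genes, Mki67, the Ki-67 protein that coats mitotic chromosomes, had 236, 265 and 289 CPM (lowest, median and highest gastruloid) at day 4 and 169, 204 and 227 at day 3.5. The 2 groups did not overlap, and the log2 fold change was 0.37 ± 0.04 (SE; edgeR adjusted p = 7.4e-10). Tpx2, a spindle assembly factor, did not overlap either, with 214 to 239 at day 4 and 147 to 211 at day 3.5 (0.31 ± 0.04, edgeR adjusted p = 1.1e-07). Nusap1 had the largest log2 fold change of the part, 0.46 ± 0.05, from a median of 104 to 151. Kif23, a kinesin of cell division, rose by 0.30, Bub1, a kinase of the spindle checkpoint, by 0.26, Top2a by 0.21 and Cdk1, the kinase that starts mitosis, by 0.20. In each of these 7 genes all 16 gastruloids of day 4 were above the median of day 3.5. Ccnb1, the main mitotic cyclin, had medians of 143 (day 4) and 139 (day 3.5 gastruloids) and a log2 fold change within 0.01 of 0 (SE 0.04).

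Among the S genes, Ung, which removes uracil from DNA, had 30.7, 37 and 46.8 CPM at day 4 and 36.4, 51.5 and 63.8 at day 3.5, a log2 fold change of -0.46 ± 0.07 (edgeR adjusted p = 1.2e-06). No gastruloid of day 4 was above the median of day 3.5. The helicase subunits Mcm2 and Mcm5 fell by 0.38 and 0.32 on the log2 scale. Ccne1, cyclin E, which starts S phase, went from a median of 72.9 to 59.3, a log2 fold change of -0.38. Slbp, which binds histone mRNAs, and Pcna fell by 0.19 and 0.18. E2f1 (medians of 14.4 and 14.1) and Ccne2 (19.2 and 16.5) did not pass the test, with adjusted p = 0.61 and 0.0502 in edgeR.

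Cdkn1a changed most of all members. It had 29.6, 43.1 and 93.4 CPM at day 4 and 79, 128 and 189 at day 3.5. All 16 gastruloids of day 4 were below the median of day 3.5, though the groups overlapped, and the log2 fold change was -1.60 ± 0.14 (edgeR adjusted p = 1.6e-10). The same gene had a median of 243 at day 3 (158 to 288), and 45.7 and 39.5 at days 4.5 and 5. In the lanes without gastruloid calls it was at 207 at day 3 (exact Poisson 95% interval 203 to 211, counting error only), at 47.6 at day 4, and at 44.3 and 43.5 in the mixed lanes of days 4 and 4.5.

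The other G1 regulators moved less. Ccnd2 fell with a log2 fold change of -0.73 ± 0.13, from a median of 279 to 139, with 2 of 16 day 4 gastruloids above the day 3.5 median. Ccnd3 fell by 0.17, Cdkn1b rose by 0.19, and Ccnd1 (medians of 128 at day 4 and 177 at day 3.5) did not pass the test (log2 fold change -0.22 ± 0.13, edgeR adjusted p = 0.12). Ccnd1 and Ccnd2 both spanned a wide range at day 4, from 93 to 258 and from 111 to 313.

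Of 22 further S genes outside the 47, 15 fell and 2 rose, and of 29 further G2/M genes 17 rose and 4 fell, beside 31.1% of all genes higher and 29.2% lower. Ndc80, of the kinetochore, rose by 0.44, while Psrc1, a spindle protein, had a log2 fold change of -0.46. Of 10 p53 target genes all 10 fell, among them Pmaip1 (-1.44 ± 0.16), Ccng1 (-0.90) and Sesn2 (-0.89). Of 17 further genes of G1 control 8 rose and 1 fell, led by the inhibitors Cdkn1c (1.32 ± 0.16) and Cdkn2c (1.18 ± 0.21).

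Single cell types were compared in the same way. In the Early Posterior PSM (PSM is presomitic mesoderm, which gives rise to somites), 16 gastruloids of day 4 and 13 of day 3.5 were compared, and 10 G2/M genes rose and none fell, while 7 S genes fell and 1 rose, against 19.7% of all genes higher and 18.6% lower. The S gene that rose was Mcm7 (0.10). Of the 22 further S genes 5 fell and 1 rose there, with a median of -0.02. In the Caudal Epiblast, with 15 gastruloids at each day, 16 G2/M genes rose and none fell, and 7 S genes fell and none rose, against 11% higher and 10.2% lower. Nusap1 rose by 0.47 ± 0.08 in the first type and by 0.52 ± 0.08 in the second. Mki67 rose by 0.21 and 0.27. Ccne1 had log2 fold changes of -0.41 ± 0.05 and -0.55 ± 0.09, and in both types no gastruloid of day 4 was above the median of day 3.5.

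Cdkn1a fell in both types. In the Early Posterior PSM it went from a median of 102 (62.3 to 234) to 47.7 (43.4 to 90.3), a log2 fold change of -1.16 ± 0.13 (edgeR adjusted p = 8e-09). In the Caudal Epiblast the medians were 126 (69.8 to 204) and 90.4 (65.4 to 122), a change of -0.51 ± 0.10. Of the p53 targets 6 of 9 tested fell in the Early Posterior PSM, against 18.6% of all genes. In the Caudal Epiblast 2 of 9 fell, against 10.2% of all genes, and Bbc3, a promoter of cell death, rose by 0.42. Ccnd2 had opposite signs in the 2 types: -0.45 ± 0.06 in the Early Posterior PSM (155 to 218 at day 3.5, 90.3 to 170 at day 4) and 0.30 ± 0.05 in the Caudal Epiblast (245 to 362 at day 3.5, 296 to 430 at day 4). The difference between the types was not tested. Cdkn1b rose in both, by 0.25 ± 0.09 and 0.48 ± 0.09, but the call in the Early Posterior PSM was lost with DESeq2 and without lane D (highest adjusted p = 0.20). Ccnd1 in the Caudal Epiblast (0.13 ± 0.04) lost its call without lane A, without lane C, without the filter on low counts and with at least 20 cells (highest adjusted p = 0.19), and Mcm6 there (-0.21 ± 0.05) without lane A (adjusted p = 0.10). Lane C also took the Caudal Epiblast's count of members called from 27 to 18.

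**Figure D3:**
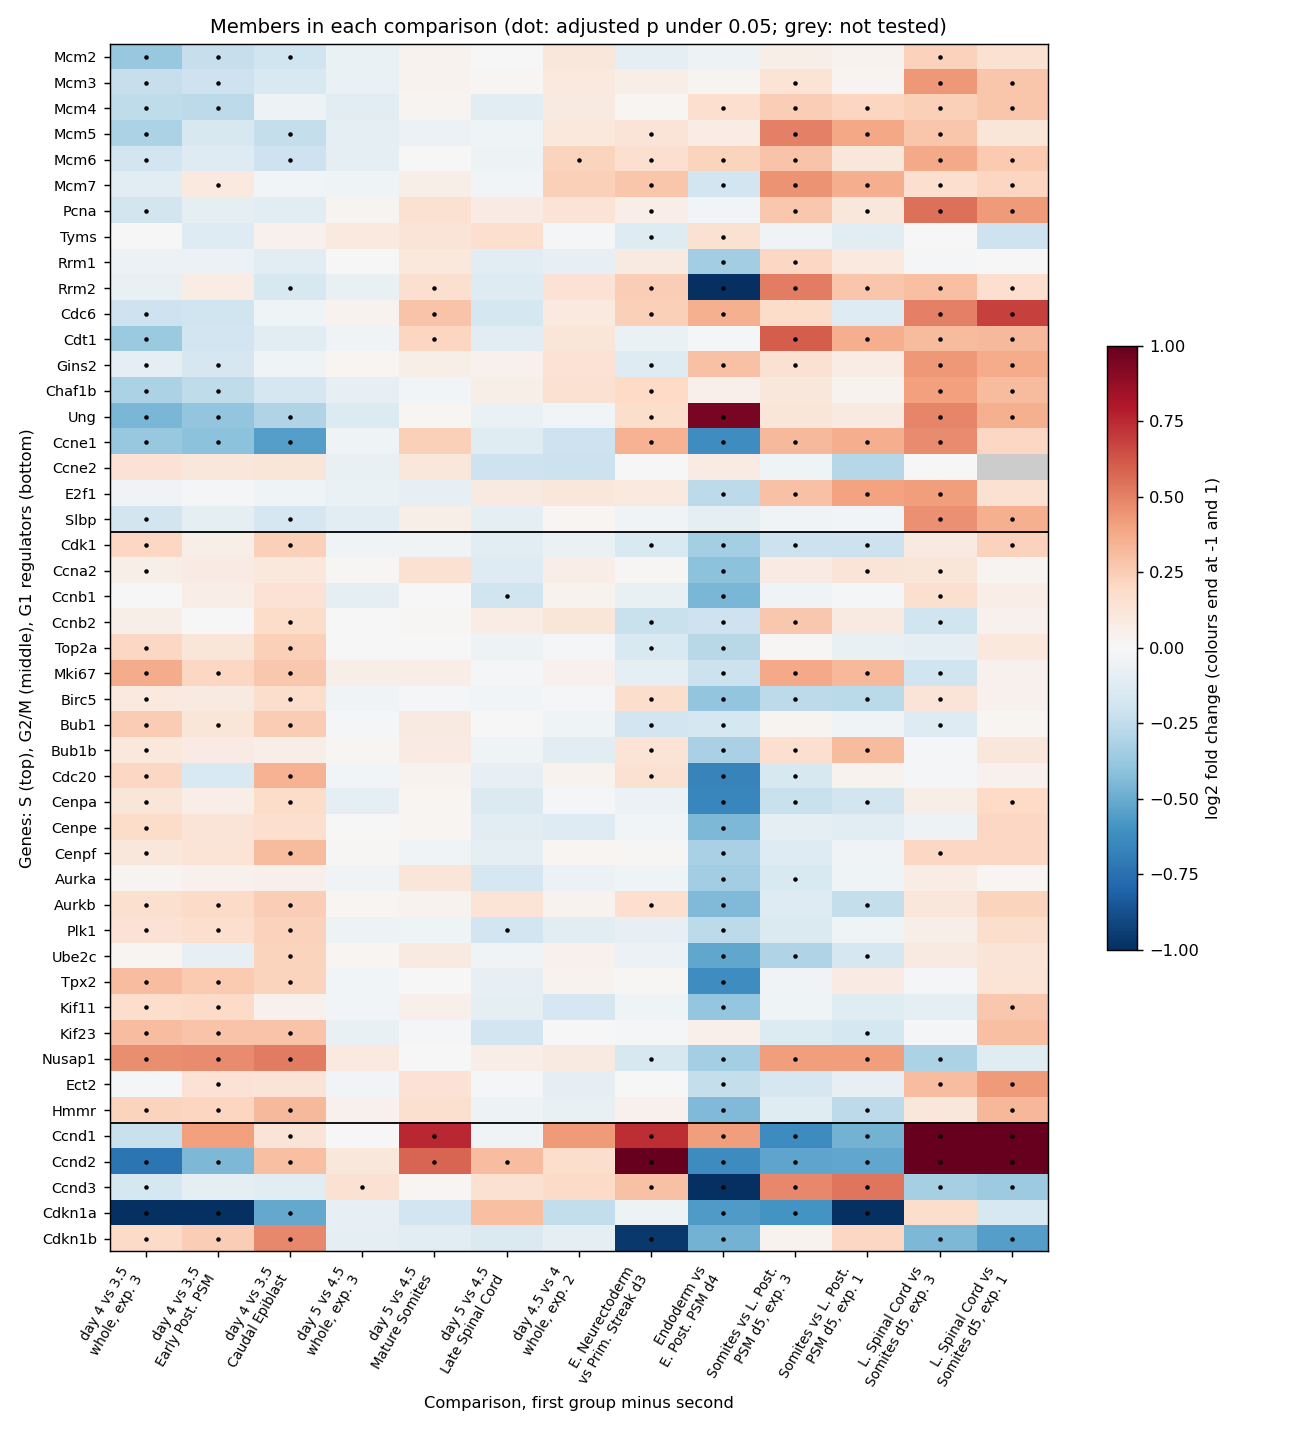
Log2 fold changes (colour, first group minus second) of the 47 genes (rows) in 13 comparisons (columns), where dots mark an adjusted p under 0.05 and grey marks a gene that was not tested. The first 3 columns show S genes lower and G2/M genes higher at day 4 than at day 3.5, and the next 4 columns hold few dots.

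From day 4.5 to day 5 the members hardly changed. Of the 47 genes 1 passed the test over whole gastruloids (16 against 16), when 13.5% of all genes did, and 7 had an unadjusted p under 0.05. The share of all genes under that unadjusted threshold was not taken, here or below. Such counts of members therefore cannot be set against all genes. The gene that passed was Ccnd3, at 66.3, 72.7 and 83.6 CPM at day 5 and 53, 65.1 and 77.2 at day 4.5 (log2 fold change 0.15 ± 0.05, edgeR adjusted p = 0.048). Without lane B, without lane C or with RLE scaling, this call was lost (highest adjusted p = 0.057). DESeq2 called 2 members. Mki67 (medians of 159 and 151) and Pcna (238 and 224) had adjusted p = 0.29 and 0.90 in edgeR.

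In MULTI-seq 2, day 4.5 against day 4 (12 against 11 gastruloids) gave a single call as well, when 7.36% of all genes passed. It was Mcm6, at 131, 161 and 185 against 118, 134 and 159 (0.22 ± 0.07, edgeR adjusted p = 0.047), and 9 members had an unadjusted p under 0.05. Without lane 3 no member passed, and without lane 2 there were 2. DESeq2 called 5. Within the Early Spinal Cord of that experiment (11 gastruloids against 4) edgeR and DESeq2 both called 0 of 47, 7 having an unadjusted p under 0.05, and 0.397% of all genes passed.

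Within 2 types of the late pool a few members changed from day 4.5 to day 5. In Mature Somites (16 gastruloids against 13, 14% of all genes called) 5 members rose. Ccnd1 had 95.2, 122 and 153 at day 5 and 30.8, 66.3 and 183 at day 4.5, with all 16 gastruloids above the earlier median (0.75 ± 0.12, edgeR adjusted p = 1.3e-05). Ccnd2 went from 90.1, 111 and 151 to 129, 175 and 214 (0.58 ± 0.07). The other 3 were Cdc6 and Cdt1, which load the helicase onto DNA (0.28 and 0.21), and Rrm2, which makes deoxynucleotides (0.16). Cdc6 and Cdt1 lost their calls without lane A and without lane B, and Rrm2 without lane B, where 2 of the 5 calls were left and 1 G2/M gene passed in addition. In the Late Spinal Cord (8 against 7, 7.79% called) Ccnd2 rose by 0.31 ± 0.06, Ccnb1 had a change of -0.20 ± 0.05 and Plk1, a mitotic kinase, of -0.19 ± 0.06. Plk1 lost its call without lane A, B or C and without the filter, and Ccnb1 without lane B, where 1 member passed.

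Pooled over all cells of a type in MULTI-seq 3, the G2/M sum ran from 167 CPM in Neurons to 4816 in Head Mesoderm, and the S sum from 481 in Neurons to 2372 in Caudal Neurectoderm. These pooled values mix days and lanes and include cells without a gastruloid call, so they are descriptions. The 4 types with the lowest G2/M sums after Neurons were Epiblast (2508), Notochord (2718), Mature Endoderm (3149) and Anterior Primitive Streak (3436). The order at the top depended on the day: over gastruloids of day 4 the highest medians were Head Mesoderm (5140), Somites (4992) and Caudal Epiblast (4811), and at day 5 Late Neurectoderm (4082), NMPs (neuromesodermal progenitors, 4078) and Head Mesoderm (4021), with ranges that overlapped. Notochord and Mature Endoderm had the lowest medians at both days. For the pooled S sum, Late Neurectoderm (2194), Early Neurectoderm (2192) and Caudal Epiblast (2149) came next after Caudal Neurectoderm, and Notochord (1355), Endothelium (1367) and Epiblast (1457) were lowest after Neurons. By day, the highest medians of the S sum were Caudal Epiblast (2256) and Caudal Neurectoderm (2253) at day 3, Late Spinal Cord (2547, 3 gastruloids) and Caudal Neurectoderm (2502, 13 gastruloids) at day 3.5, Early Spinal Cord (2186) at day 4 and Late Spinal Cord (2103) at day 5.

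**Figure D4:**
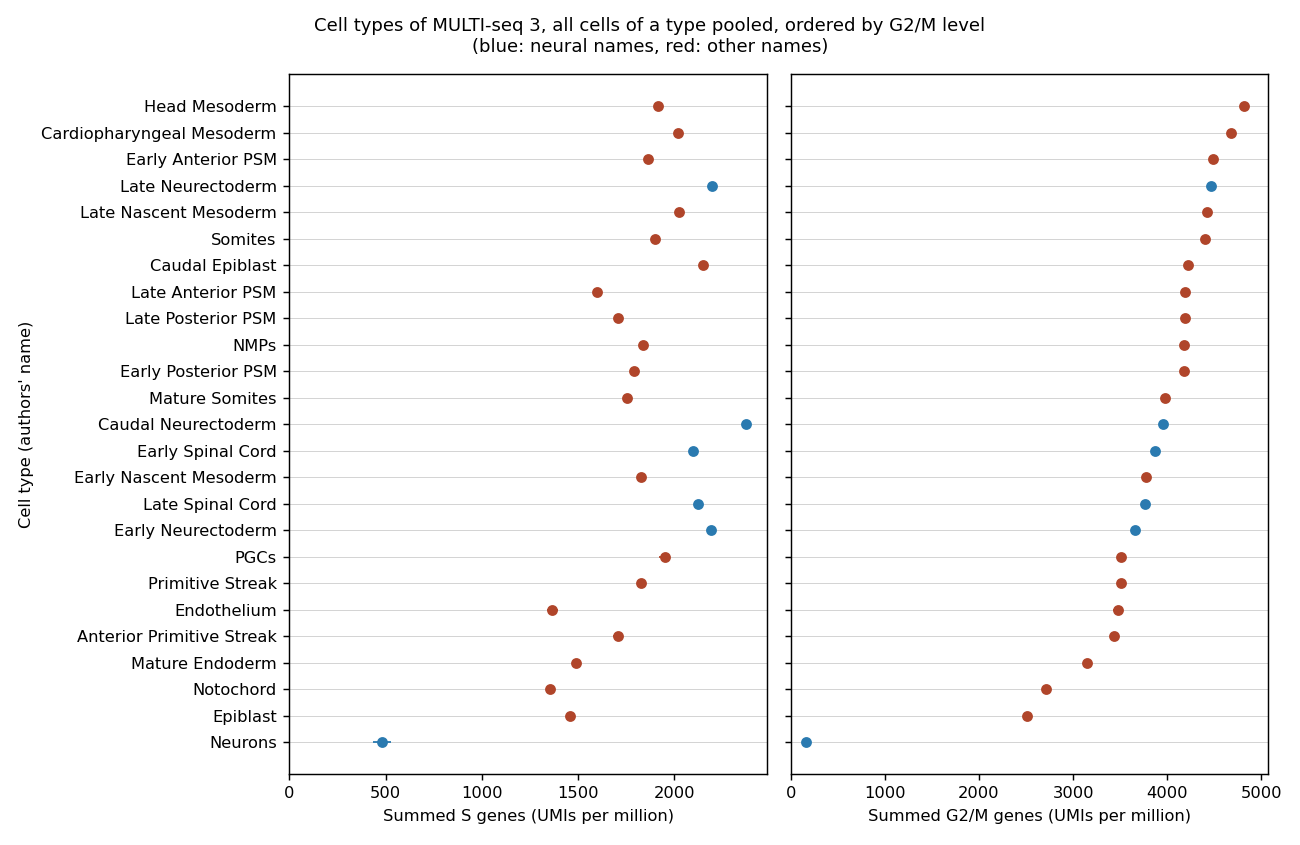
Summed S genes (left) and G2/M genes (right) in CPM for the 25 named types of MULTI-seq 3, all cells of a type pooled, with exact Poisson intervals that cover counting error only and are often smaller than the point. Neurons stand apart at 481 and 167, and the types come in a different order in the 2 panels.

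Gene by gene, in the same values pooled over days, Neurons were the lowest of the 25 types for all 23 G2/M genes and for 18 of 19 S genes. In MULTI-seq 3, Caudal Neurectoderm had enough cells per gastruloid at days 3 and 3.5 and Cardiopharyngeal Mesoderm at day 4, the days with the highest S and G2/M sums among them, so type and day cannot be told apart in their pooled ranks. All 6 helicase subunits (Mcm2 to Mcm7) were highest in Caudal Neurectoderm, as were Cdc6, Ccne1 and Slbp, which made 9 of the 19 S genes. Mcm6 was at 185 there and at 166 in Early Spinal Cord, the next type. Of the G2/M genes 8 were highest in Cardiopharyngeal Mesoderm and 4 in Head Mesoderm, among them Mki67 at 302 and 289 and Top2a at 626 and 602. Pcna was highest in Late Spinal Cord (310) and Ung in PGCs, the primordial germ cells (87.9).

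The authors called 65.8% of Epiblast cells, 64.0% of Notochord cells, 49.7% of Endothelium cells and 49.3% of Mature Endoderm cells G1 in MULTI-seq 3. The lowest shares were in Late Neurectoderm (13.8%), Early Spinal Cord (15.2%) and Late Spinal Cord (16.5%). S calls were most frequent in Late Spinal Cord (36.0%) and Early Spinal Cord (34.6%), whose S sums were below that of Caudal Neurectoderm (32.4%). Phase calls and sums come from the same cells, so they are not independent measurements.

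Neurons were a group of 43 cells in MULTI-seq 3, with 870441 UMIs in all, and all 43 were called G1. Their S sum of 481 (exact Poisson 95% interval 436 to 530) and G2/M sum of 167 (141 to 196) rest on 419 and 145 UMIs, and the 70 Neurons of all lanes gave 534 and 178. When cells were thinned to 5000 UMIs, 53.5% of Neurons had no G2/M UMI (exact binomial 95% interval 37.7 to 68.8%). That interval counts cells and leaves out the spread between gastruloids and lanes. The share was 25.9% in Notochord, 8.68% in Mature Endoderm and 1.73% in Late Spinal Cord. Without thinning the shares were 6.98%, 5.98%, 1.35% and 0.221%, at median depths of 18026, 24325, 39385 and 31857 UMIs per cell. RNA free in the droplets can give UMIs in cells that do not express a gene, and its share in the 145 UMIs was not tested. Neuronal markers (Tubb3, Elavl3, Dcx, Neurod1) summed to 3458 CPM in this type.

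In Neurons, Mki67 had 1 UMI, Cdk1 4, Ccnb1 5 and Top2a 13. Cdc6, Bub1b and Kif23 had none, which allows up to 3.45 CPM (3 counts of the total). Ccnd1 was at 270 CPM (235 UMIs), Cdkn1a at 128, Slbp at 117 and Ccnd2 at 81.6. E2f1 was the 1 S gene for which Neurons were not the lowest type, at 20.7 CPM on 18 UMIs. Too few gastruloids held 10 or more Neurons for a test across replicates.

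At day 3, Early Neurectoderm and Primitive Streak of the same 21 gastruloids differed most in the G1 regulators. Ccnd2 had 218, 256 and 327 CPM in Early Neurectoderm and 103, 115 and 148 in Primitive Streak, a log2 fold change of 1.08 ± 0.04 (edgeR with gastruloid as a block, adjusted p = 3.4e-44). Ccnd1 had 129, 155 and 195 against 74.9, 92.4 and 103 (0.74 ± 0.04). In both genes the types did not overlap and all 21 gastruloids had the same direction. Ccnd3 was higher by 0.29. Cdkn1b was lower, at 10.4, 24.8 and 41 against 36.5, 45.1 and 54.3 (-0.97 ± 0.07, higher in 1 of 21 gastruloids). Cdkn1a had nearly the same median in both, 262 and 264 (-0.05 ± 0.03, adjusted p = 0.26).

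Of the S genes 9 were higher and 2 lower in Early Neurectoderm (median log2 fold change 0.09), and of the G2/M genes 4 were higher and 5 lower (-0.04), against 24.7% and 23.1% of all genes tested (0.01). Of the 22 further S genes 13 were higher and 3 lower. Ccne1 (0.35 ± 0.04) and Mcm7 (0.27 ± 0.04) led the S genes, and Ccnb2 (-0.22), Bub1 (-0.20), Nusap1 (-0.16), Cdk1 (-0.15) and Top2a (-0.15) were lower. The 4 higher G2/M genes were Birc5 (0.18), Aurkb (0.17), Cdc20 (0.15) and Bub1b (0.14), and the 2 lower S genes were Tyms and Gins2 (both -0.13). Without lane A, 13 rather than 24 members passed, and Bub1, Nusap1, Cdk1, Top2a, Pcna and Mcm5 lost their calls. Mcm5 also lost its call without the filter on low counts, and Pcna did so in 5 other alternatives as well (DESeq2, RLE scaling, no filter, no gastruloid block and at least 20 cells; highest adjusted p = 0.64). Of 10 p53 targets 8 were higher in Early Neurectoderm, led by Eda2r (0.72) and Phlda3 (0.66), and Pmaip1 was lower (-0.86). The authors' clusters were made from these cells, so this and the next tests describe differences between clusters as named.

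At day 4, Mature Endoderm had lower G2/M genes than Early Posterior PSM of the same 14 gastruloids. Of the 23 G2/M genes 22 were lower and none higher, with a median log2 fold change of -0.35, and Kif23 alone did not pass (0.05 ± 0.05), when 35.1% of all genes were lower and 32.6% higher. Cenpa, the histone that marks centromeres, had 148, 194 and 209 CPM in Mature Endoderm and 291, 311 and 359 in Early Posterior PSM (-0.65 ± 0.04). Cdc20, which activates the anaphase-promoting complex, had 74.7, 97.3 and 130 against 132, 162 and 220 (-0.67 ± 0.07). Neither gene overlapped between the types. Cdk1 had medians of 148 and 194 (-0.34), Ccnb1 of 102 and 151 (-0.46), Top2a of 458 and 591 (-0.28) and Mki67 of 215 and 255 (-0.21).

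Of the 19 S genes 6 were higher and 5 lower in the endoderm, near the 32.6% and 35.1% of all genes. Rrm2 was lower in all 14 gastruloids and did not overlap, with 73.2, 90 and 102 against 135, 190 and 210 (-1.01 ± 0.05). Ccne1 was lower by 0.62 on the log2 scale and E2f1 had a change of -0.26, which was lost without lane A and with DESeq2 (highest adjusted p = 0.16). Ung was higher, at 36.6, 49.9 and 62.4 against 11, 26.8 and 38.7 (0.95 ± 0.09), as were Cdc6 (0.36), Gins2 (0.29) and Mcm6 (0.22), and Cdc6 lost its call without lane D (adjusted p = 0.057). Pcna (-0.03 ± 0.05) and Mcm5 (0.07 ± 0.04) did not pass.

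Of the G1 regulators, Ccnd3 was the lowest in endoderm relative to Early Posterior PSM. It had 9.25, 23.2 and 45.4 against 58.3, 62.4 and 69.9, with no overlap (-1.23 ± 0.11, edgeR adjusted p = 2.7e-10). Ccnd2, Cdkn1a and Cdkn1b were lower as well, with log2 fold changes of -0.63, -0.57 and -0.48. Ccnd1 was higher by 0.42 ± 0.16, in 11 of 14 gastruloids, and lost its call with DESeq2 (adjusted p = 0.072). Of the partners outside the 47, Cdk6, a kinase of the D-type cyclins, had a change of -2.01 ± 0.11, and the inhibitors Cdkn1c and Cdkn2a were higher by 1.06 and 1.00. Of the further S and G2/M genes, 12 of 22 and 24 of 29 were lower, against 35.1% of all genes lower and 32.6% higher.

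At day 5, Mature Somites had higher S genes than Late Posterior PSM in 2 experiments. In MULTI-seq 3 (16 gastruloids) 12 of 19 S genes were higher and none lower, against 25.6% of all genes higher and 25.8% lower. In MULTI-seq 1 (22 gastruloids) the counts were 8 and 0, against 22.6% and 22.3%. Mcm5 had 76.9, 85.8 and 91.8 in Mature Somites and 43.1, 60.4 and 76.9 in Late Posterior PSM of MULTI-seq 3 (0.50 ± 0.05), and was higher by 0.39 ± 0.06 in MULTI-seq 1. Cdt1 was higher by 0.61 and 0.37, and Pcna by 0.27 and 0.11. E2f1 (0.29 and 0.40) lost its call without lane A or C of MULTI-seq 3 and without lane 3 of MULTI-seq 1, and Pcna without lane 1 of MULTI-seq 1, and DESeq2 called neither E2f1 in MULTI-seq 3 nor Pcna in MULTI-seq 1 (highest adjusted p = 0.19).

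Of the 23 G2/M genes 4 were higher and 6 lower in MULTI-seq 3 and 4 higher and 7 lower in MULTI-seq 1, not far from the shares of all genes given above. Mki67 was higher in both, by 0.38 ± 0.06 and 0.32 ± 0.05, as were Nusap1 (0.42 in each) and Bub1b of the spindle checkpoint (0.17 and 0.31). The remaining higher gene was Ccnb2 (0.27) in MULTI-seq 3 and Ccna2 (0.13) in MULTI-seq 1. Cdk1 was lower in both, with changes of -0.22 ± 0.05 and -0.21 ± 0.05, as was Birc5, the survivin protein of the chromosomal passenger complex (-0.26 and -0.27). Top2a did not pass in either (0.01 and -0.08).

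D-type cyclins did not move together between these 2 types. Ccnd1 and Ccnd2 were lower in Mature Somites, with log2 fold changes of -0.63 and -0.53 (MULTI-seq 3 gastruloids) or -0.47 and -0.52 (those of MULTI-seq 1). Ccnd3 was higher, by 0.48 ± 0.07 and 0.53 ± 0.06, in all 16 and all 22 gastruloids. Cdkn1a was lower (-0.60 ± 0.10 and -1.03 ± 0.14). Outside the 47 genes Cdk6 was lower (-2.05 and -1.61) and Cdkn1c higher (1.12 and 1.40) in both. The difference between the experiments was tested as an interaction, and 0 of 47 members passed in edgeR and in DESeq2, when 0.761% of all genes did and 7 members had an unadjusted p under 0.05.

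Between Late Posterior PSM and Mature Somites lies the cluster named Somites, where Ccnd1 was far higher than on either side. At day 5 of MULTI-seq 3 it had 109, 179 and 280 CPM in Late Posterior PSM (16 gastruloids), 142, 186 and 314 in Late Anterior PSM (15), 397, 492 and 618 in Somites (12) and 95.2, 122 and 153 in Mature Somites (16). In MULTI-seq 1 the medians were 226, 200, 527 and 153, and the Somites ranged from 425 to 668, while the highest gastruloid of the other 3 types was at 319. The Somites of both experiments thus overlapped none of the other 3 types. This comparison was picked after its values were seen and has no test.

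The level in Somites also differed by day. Ccnd1 had 101, 139 and 339 at day 4 (12 gastruloids) and 245, 276 and 380 at day 4.5 (10), both below the 397 to 618 of day 5. In MULTI-seq 2 it had 94.5, 143 and 194 at day 4 (4 gastruloids) and 207, 244 and 311 at day 4.5 (4), with no overlap. Ccnd2 in the same Somites was at 65.1, 98 and 131 (medians of days 4, 4.5 and 5 in MULTI-seq 3), and its 82 to 215 at day 5 overlapped the 129 to 214 of Mature Somites.

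**Figure D5:**
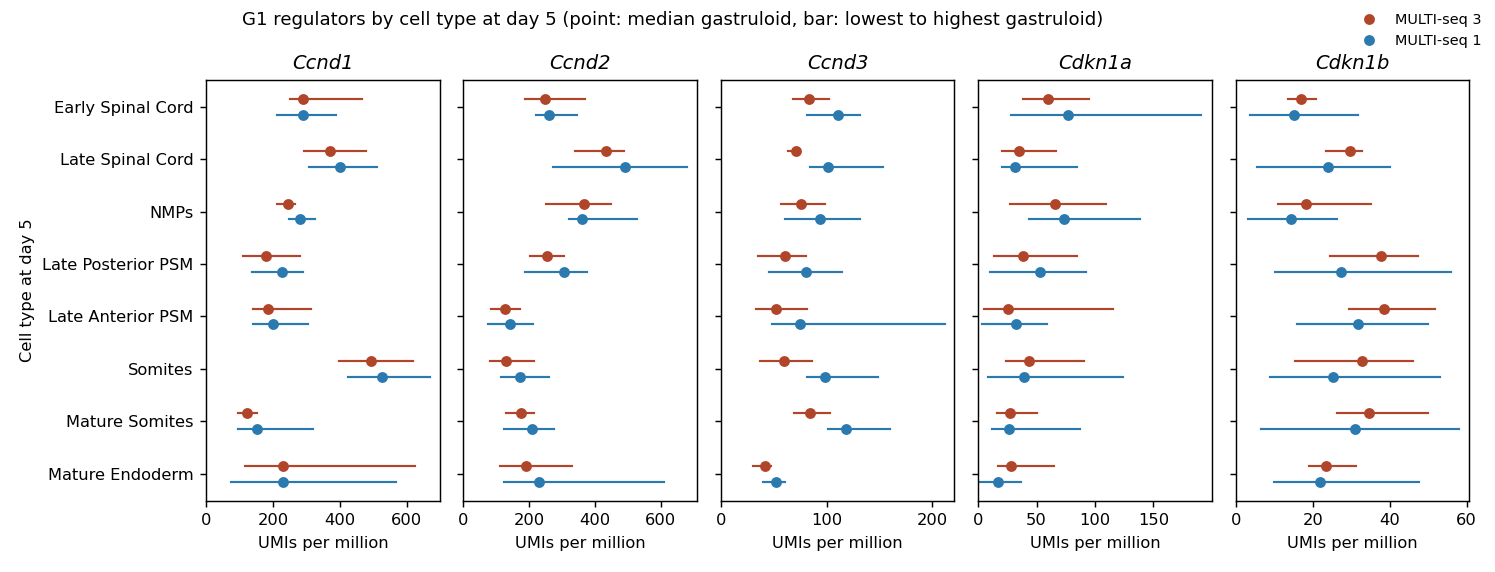
Levels of the 5 G1 regulators (CPM, x axes) in 8 cell types at day 5, with the median gastruloid as a point and the lowest to highest gastruloid as a bar, for MULTI-seq 3 (red) and MULTI-seq 1 (blue). Ccnd1 is high in Somites (medians of 492 and 527) and Late Spinal Cord (371 and 400), while Ccnd2 is high in Late Spinal Cord and not in Somites (131 and 173).

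At day 5, Late Spinal Cord had higher S genes and higher Ccnd1 and Ccnd2 than Mature Somites of the same gastruloids. In MULTI-seq 3 (8 gastruloids) 16 of 19 S genes were higher and none lower, against 28.9% of all genes higher and 30% lower. In MULTI-seq 1 (14 gastruloids) 12 of 18 tested S genes were higher and none lower, against 17.3% and 18.6%, Ccne2 being too low to test. Pcna had 271, 317 and 387 against 193, 221 and 254 in MULTI-seq 3, with no overlap (0.55 ± 0.04), and was higher by 0.43 ± 0.07 in MULTI-seq 1. Slbp was higher by 0.46 and 0.36 and Cdc6 by 0.50 and 0.68.

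Of the G2/M genes 5 were higher and 4 lower in MULTI-seq 3, and 5 higher and none lower in MULTI-seq 1, where 28.9% and 30% of all genes, and 17.3% and 18.6%, were higher and lower. Log2 fold changes were above 0 for 12 of 23 in the former (median 0.06) and for 22 of 23 in the latter (median 0.13). Nusap1 (-0.32 ± 0.05) and Mki67 (-0.20 ± 0.04) were lower in all 8 gastruloids of MULTI-seq 3, while Mki67 in MULTI-seq 1 had 0.04 ± 0.09. Ect2 was higher in both experiments (0.31 and 0.42). Beside it Cenpf (0.21), Birc5 (0.13), Ccna2 (0.12) and Ccnb1 passed in MULTI-seq 3, and Hmmr (0.34), Kif11 (0.27), Cdk1 (0.23) and Cenpa (0.20) in MULTI-seq 1, where Cdk1 lost its call with DESeq2 (adjusted p = 0.15). Ccnb1 was higher by 0.16 in MULTI-seq 3 and lost that call without lane A (adjusted p = 0.095). In MULTI-seq 1, 11 rather than 21 members passed without lane 3, among the lost calls Ect2 (0.42 ± 0.14), which directs cell division, and Cdkn1b lost its call without lane 1 or lane 2 (highest adjusted p = 0.14). Without the gastruloid block Cdc6 lost its call in MULTI-seq 1 (adjusted p = 0.098).

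Ccnd1 had 293, 371 and 478 CPM in Late Spinal Cord and 99.3, 106 and 150 in Mature Somites of MULTI-seq 3 (1.73 ± 0.07, edgeR adjusted p = 2.7e-14). In MULTI-seq 1 it had 307, 405 and 511 against 109, 155 and 319 (1.19 ± 0.08). Ccnd2 was higher by 1.31 ± 0.08 and 1.23 ± 0.08. Ccnd3 was lower in both (-0.33 and -0.36), as was Cdkn1b (-0.45 and -0.55). Cdk6 was higher (1.86 and 1.46). As an interaction, the difference in Ccnd1 was larger in MULTI-seq 3 by 0.54 ± 0.12 (edgeR adjusted p = 0.028), the 1 call among the 47 members when 0.111% of all genes passed. The call was lost without lane A of MULTI-seq 3, without lane 1 or lane 2 of MULTI-seq 1, with RLE scaling and without the gastruloid block (highest adjusted p = 0.082).

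Over all 25 types of MULTI-seq 3, in values pooled over days, the 5 regulators differed in their highest type. The exception was Notochord, which was highest for both Ccnd1 and Cdkn1b. Pooled Ccnd1 was highest in Notochord (356) and Late Spinal Cord (349) and lowest in Early Anterior PSM (72.1). This order depends on the days pooled: every gastruloid's Somites at day 5, given above, had more Ccnd1 than these pooled values. Ccnd2 ran from 14.6 in PGCs to 417 in Late Spinal Cord, with NMPs (364) and Caudal Neurectoderm (361) next. Ccnd3 was lowest in PGCs (19.2) and highest in Endothelium (131.5), where Ccnd2 was at 68.7.

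The inhibitors Cdkn1a and Cdkn1b were highest in different types. In values pooled over days, Cdkn1a was highest in Epiblast (293), Primitive Streak (254) and Early Neurectoderm (237), and lowest in Late Nascent Mesoderm (20.8). Whole gastruloids also differed by day in Cdkn1a, being highest at day 3. Type, day and pool therefore cannot be told apart in this order. Cdkn1b was highest in Notochord at 147, where the 7 gastruloids of day 4 had 134, 187 and 232, and lowest in Early Spinal Cord at 21.4. Head Mesoderm, the next type for Cdkn1b in the values pooled over days, was at 67.7. In Primitive Streak, Cdkn1b had 36.5, 44.8 and 54.3 at day 3 (24 gastruloids), 60.4, 91.5 and 154 at day 3.5 (16) and 77, 149 and 163 at day 4 (5), the first in a different pool from the other 2. Cdkn1a in Primitive Streak had medians of 262, 225 and 134 at the same days.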

How the data were processed

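The unit of the deposited matrices was UMI counts per gene and cell, and the submitters' processing notes name Cell Ranger 6.0.0, the mm10 build and Seurat. The authors' deposited S and G2/M score of each cell was not used; the labels and file headers do not say how it was made. Cell names, gastruloid calls and phases came from the authors' deposited cell table, and doublets were not called again here. Its UMI totals equalled the matrix totals in every cell of the MULTI-seq 2 and MULTI-seq 3 lanes. They did so in no cell of MULTI-seq 1 or of the single-day lanes without gastruloid calls. Matrix totals were used throughout. Of 22 samples, 18 lanes were used and 4 samples were not analysed here. Counts were summed per gastruloid (at least 30 cells) or per gastruloid and type (at least 10 cells), and divided by all UMIs of the sum to give CPM. Values pooled over a type or a phase call, and shares of cells by type, used cells with and without a gastruloid call. Tests used edgeR 4.0.16 in R 4.3.3 (quasi-likelihood, TMM scaling, filterByExpr, Benjamini-Hochberg over all genes tested, threshold 0.05), with gastruloid as a block between types of the same gastruloids, and were checked on simulated data. A gastruloid was sampled on 1 day, so days were not paired. Alternatives were DESeq2 1.42.0, RLE scaling, no filter, higher cell minimums, no block, and leaving out each lane.

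Named genes were 15 members fixed for every comparison, up to 5 more a direction with the largest change past the threshold, and up to 3 a direction from each further list. Members of counts of 5 or fewer outside that rule were named after their values were seen. The members and lists were chosen with earlier results of these data known. Promoters came from RefSeq (GRCm38.p6), which had 39 of 47 members.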

Additional observations from a re-analysis of the deposited data

Results flagged for a closer look

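Each of 131 tests took 1 measure in 1 group of 4 to 10 gastruloids. The same gastruloids entered several tests (the S sum, the G2/M sum and, in some spinal cord groups, single genes), so the tests were not independent. About 1 test in 20 would show a gastruloid set apart from the others by chance, and 6 tests did. In 5 of them the summed S genes were high: 2418 CPM in Cardiopharyngeal Mesoderm of MULTI-seq 2 at day 4 (the other 3 at 1830 to 1893), 2549 in Head Mesoderm of MULTI-seq 2 at day 4.5 (the other 4 at 1868 to 2051), 2799 in Early Neurectoderm of MULTI-seq 3 at day 3.5 (the other 8 at 2311 to 2518), 1996 in Early Nascent Mesoderm of MULTI-seq 3 at day 4 (the other 3 at 1770 to 1786) and 1820 in Notochord of MULTI-seq 3 at day 4 (the other 6 at 1309 to 1470). In the sixth, Pcna was low in 1 gastruloid of the Early Spinal Cord of MULTI-seq 2 at day 4, at 288 against 362 to 374. The higher Ccnd1 of Late Spinal Cord over Mature Somites at day 5 differed between experiments, by 0.54 on the log2 scale in a test of the difference itself (edgeR adjusted p = 0.028), a call that was lost in 5 alternatives (RLE scaling, no gastruloid block, without lane 1 or lane 2 of MULTI-seq 1, without lane A of MULTI-seq 3; highest adjusted p = 0.082).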

How the results depend on the processing

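Of 139 pairs of a named member and a comparison past the threshold, 111 stayed past it under every alternative run, and of 1109 values 1055 kept their direction and call, 54 lost the call and none changed direction. For counts of members called, day 5 against 4.5 gave 1, with 2 under DESeq2, 0 under RLE and 0 to 1 without a lane. Day 4.5 against 4 in MULTI-seq 2 gave 1, with 5 under DESeq2, 2 without the filter, 3 with at least 100 cells and 0 to 2 without a lane. Mature Somites gave 5 between days, with 8 without the filter and 3 to 6 without a lane, and Late Spinal Cord gave 3, with 1 to 2 without a lane. Early Neurectoderm against Primitive Streak gave 24, with 13 to 24 without a lane, and Late Spinal Cord against Mature Somites of MULTI-seq 1 gave 21, with 11 to 19. Of the differences between experiments, that of somites and PSM gave 0, with 2 without the filter, and that of spinal cord and somites gave 1, with 0 under RLE, 0 without the replicate block and 0 to 1 without a lane. Without the replicate block no other count moved by over 1.5 times. The share of higher among all genes called moved by over 10 points with RLE scaling in the first of these (43.3% to 53.7%), with DESeq2, which changes the test too, in both (to 55.1%, and 54.5% to 88.6%), and without the filter in 4 comparisons, among them day 5 against 4.5 (47.2% to 62.9%). Thinning, which gives each cell equal weight, lowered the median G2/M sum to 3976 (MULTI-seq 1), 3255 and 3251 (MULTI-seq 2, days 4 and 4.5) and 3166, 3649, 4086, 3451 and 3407 (MULTI-seq 3, days 3, 3.5, 4, 4.5 and 5). Leaving out a lane or raising the cell minimum left too few gastruloids in the Early Spinal Cord of MULTI-seq 2, and Neurons against Late Spinal Cord was not run. Depth limits the 10 members with 3 or fewer UMIs in Neurons.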

Other observations

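In the lanes without gastruloid calls, the S sum was 2292 CPM at day 3 and 2555 at day 4 of the 10X experiment, and 2039 and 2168 in the 2 mixed lanes of days 4 and 4.5. The G2/M sums were 3569, 3562, 3885 and 3810. Ccnd2 was at 162 at day 3 and 256 at day 4, and at 252 and 238 in the mixed lanes. Cdkn1b was at 29.8, 31.3, 26.3 and 27.2 in the same 4 lanes. Each value is 1 library, so none was tested.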
